A study of Mus musculus with 12 samples.

Results

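The response of wild-type oligodendrocyte precursor cells (OPCs) to 3 h of inflammatory cytokines was followed in 6 of the 12 RNAseq libraries of the study, 3 from stimulated cells (Stim) and 3 from non-stimulated cells (NS). The members are the 18021 of 45563 gene symbols whose mean over these 6 libraries was at least 0.1 FPKM (fragments per kilobase of gene, scaled to library depth), and each stimulated culture was compared with the non-stimulated culture of the same number (2, 3 and 4). All 6 libraries came from wild-type (WT) pups, of strain C57BL/6J in the methods and C57BL/6 in the labels. The pups were aged 3 to 5 days after birth in the methods and 2 to 5 days in the labels. OPCs were taken from cortex with magnetic beads against PDGFRα and grown with PDGF-AA and FGF2, so both groups carried these growth factors. Stim cultures then received TNF, IFNγ and IL1β at 25 ng/mL each, and NS cultures received the PBS vehicle. The other 6 libraries hold TNFR2-/- OPCs under the same conditions and enter only the comparison of both responses and 1 alternative fit. The sources do not say whether pups were pooled or cultures came from separate litters. The p values thus measure how far the Stim minus NS differences of these cultures vary, and that spread may in part be technical.

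OPCs are the dividing glial cells that give rise to myelinating oligodendrocytes. IFNγ signals through JAK kinases to STAT transcription factors, which bind GAS elements in DNA and induce interferon regulatory factors (IRFs) that bind ISRE elements, whereas TNF and IL1β signal to NF-κB, which binds κB elements. Both routes turn on chemokines, antigen presentation and cell-autonomous defense within hours, and both induce their own inhibitors.

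Library totals were 26886878 to 30027239 read pairs in NS and 30022828 to 30091743 in Stim libraries, and replicates of a group correlated at 0.991 to 0.995 across genes. The bases by which each gene had been divided were unrelated to its length, so FPKM levels are compared only between libraries of 1 gene. The limits of 0.1 and 1 FPKM and the choice of some named genes by mean FPKM still act across genes. Reads of mitochondrially encoded genes made up 5.24 to 5.88% of NS and 4.99 to 5.11% of Stim libraries. The OPC gene *Pdgfra* was detected in every library, at 116 to 157 FPKM in NS and 93.4 to 123 in Stim libraries. Of the microglia markers, 10 of 15 genes, among them *Aif1*, *Cx3cr1*, *Tmem119*, *Csf1r*, *Itgam* and *Ptprc*, were below the 0.1 FPKM limit.

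Stimulation raised 904 genes and lowered 668. For a call, a gene needed a limma p, adjusted by Benjamini-Hochberg, of 0.05 or less (on log2(FPKM + 0.5), with a term for the culture), a change of at least 1.5-fold, which is 0.585 on the log2 scale, and a mean of at least 1 FPKM. Called genes were thus 8.72% of those tested, 5.02% upward and 3.71% downward, and by adjusted p alone they were 30.1%, 11.3% upward and 18.7% downward. With the fold threshold the induced side was the larger in number, and by adjusted p alone the repressed side was. Of the induced genes 571 differed by at least 1 on the log2 scale, 253 by at least 2, 135 by at least 3 and 52 by at least 5, whereas 190 of the repressed genes differed by at least 1, 11 by at least 2 and 1 by at least 3. The median change was 1.26 over induced genes, and culture by culture it was 1.25, 1.31 and 1.24 (cultures 2, 3 and 4). Over repressed genes the median fell by 0.82, and the values by culture were −0.87, −0.81 and −0.79. The median of all 18021 genes was −0.06. With median-of-ratios scaling it was −0.00175, and 981 genes were called higher and 530 lower, so small falls depend on the scaling. The balance by adjusted p alone was not examined with that scaling. Together the induced genes took 2.58 to 2.68% of all read pairs in NS and 7.91 to 8.12% in Stim libraries, and the repressed genes went from 3.34 to 3.48% in NS to 1.87 to 1.90% in Stim libraries.

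**Figure D1:**
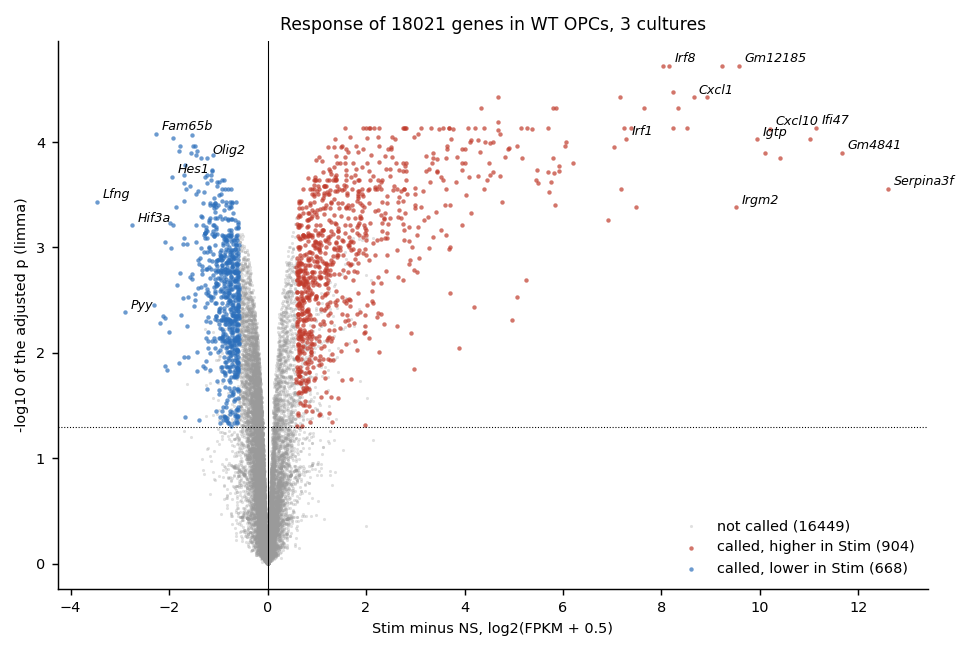
Each point is 1 of 18021 genes in WT OPCs. The horizontal axis is the difference between Stim and NS on the log2(FPKM + 0.5) scale, the vertical axis is −log10 of the limma adjusted p, and the dotted line marks an adjusted p of 0.05. The 904 genes called higher (red) reach 12.60, and the 668 called lower (blue) reach −3.46.

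By fitted difference, the 10 strongest inductions were 8 interferon-inducible GTPases, a serine protease inhibitor and a chemokine. This order depends on the pseudocount. By ratio of reads, *Cxcl9* (6641) and *Batf2* (1624), outside these 10, stood above *Cxcl10* (1484), *Igtp* (979.6) and *Irgm2* (687). Immunity-related GTPases and their relatives assemble on the vacuoles of intracellular pathogens. *Serpina3f* (ENSMUSG00000066363; GRCm38 chromosome 12, 104214544 to 104221129), a member of the α1-antichymotrypsin family, was measured at 0.520, 1.74 and 0 FPKM in NS cultures 2, 3 and 4 and at 6702, 6471 and 6363 FPKM in the Stim cultures. NS libraries thus stood at the floor of detection, with 4 reads in all against 37591, and the groups did not overlap. The ratio of reads was 9052 (95% exact counting interval 3535 to 33225), and the fitted difference was 12.60 ± 0.42 SE (n = 3 cultures, limma adjusted p = 0.000277). Such intervals cover counting error only. *Gm4841* followed with 11.66, *Ifi47* with 11.15, *Tgtp2* with 11.02, *Tgtp1* with 10.40, *Cxcl10* with 10.20, *Gm4951* with 10.10, *Igtp* with 9.95, *Gm12185* with 9.58 and *Irgm2* with 9.51, at adjusted p values from 1.88e-05 to 0.000417. Among these 10 genes, the fitted values understate the change most for *Gm4841*, *Tgtp2*, *Tgtp1*, *Gm4951* and *Gm12185*, whose NS mean was below 0.5 FPKM. *Gm12185* had 0 reads in all 3 NS libraries and 2742, 3060 and 2809 reads in the Stim cultures, at least 2765-fold higher against a floor of 3 reads over the group. In all, 18 of the 904 induced genes had 0 reads in every NS library.

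*Igtp* (ENSMUSG00000078853; chromosome 11, 58199556 to 58207591) was detected before stimulation, with 43, 26 and 54 reads in NS cultures 2, 3 and 4. Its 15.6, 10.5 and 19.6 FPKM in the NS cultures became 14236, 15785 and 15202 FPKM, 979.6 times as many reads. *Cxcl10* (ENSMUSG00000034855; chromosome 5, 92346638 to 92348889), the ligand that draws CXCR3-bearing T cells, went from 1.45, 1.04 and 2.32 FPKM to 2701, 2173 and 2350.0 FPKM, or 152 reads against 234162 (ratio 1484, interval 1266 to 1751). Sequence shared between relatives limits some of these values. Of the 100-base stretches of *Tgtp1* transcripts, 73.1% also occur in another gene, chiefly *Tgtp2*, and 76.8% of those of *Tgtp2* in turn, so reads of this pair cannot be told apart in full. For the other 8 genes the share was at most 7.41%.

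The promoters of 6 of these genes are shown because they hold letters of elements that the IFNγ or NF-κB route uses. The sequences are the bases just before the transcription start in RefSeq (build GRCm38.p6), 5′ to 3′ on the strand of the gene, in lower case, with motifs in capitals. The motifs searched on both strands were TTC, any 3 bases and GAA (GAS), GAAA, any 2 bases and GAAA (ISRE), and GGG, any 3 bases and TTCC (κB), and none overlaps another in the sequences shown.
Serpina3f, chr12:104214394-104214543, + strand: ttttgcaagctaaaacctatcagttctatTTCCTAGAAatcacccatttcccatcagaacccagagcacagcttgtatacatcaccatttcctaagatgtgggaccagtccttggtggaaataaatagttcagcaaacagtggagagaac
Tgtp2, chr11:49064213-49064332, − strand: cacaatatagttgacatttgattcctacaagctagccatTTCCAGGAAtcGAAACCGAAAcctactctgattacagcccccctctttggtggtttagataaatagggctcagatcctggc
Tgtp1, chr11:48992247-48992366, − strand: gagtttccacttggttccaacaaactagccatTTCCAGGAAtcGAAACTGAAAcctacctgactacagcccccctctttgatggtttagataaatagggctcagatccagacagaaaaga
Igtp, chr11:58199436-58199555, + strand: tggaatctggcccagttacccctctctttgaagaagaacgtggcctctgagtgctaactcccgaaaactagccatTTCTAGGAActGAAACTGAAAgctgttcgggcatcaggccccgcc
Gm12185, chr11:48927183-48927302, − strand: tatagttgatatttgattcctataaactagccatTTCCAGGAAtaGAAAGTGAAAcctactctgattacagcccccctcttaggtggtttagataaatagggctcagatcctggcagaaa
Cxcl10, chr5:92348890-92349139, − strand: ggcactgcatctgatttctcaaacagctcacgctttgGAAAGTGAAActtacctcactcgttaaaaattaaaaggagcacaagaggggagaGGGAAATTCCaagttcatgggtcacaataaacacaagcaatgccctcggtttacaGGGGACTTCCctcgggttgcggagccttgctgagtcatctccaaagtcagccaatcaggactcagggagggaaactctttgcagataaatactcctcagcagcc

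Of the 8 GTPases, 5 shared a promoter arrangement that was noticed only after the sequences were read. In *Tgtp2*, *Tgtp1*, *Igtp* and *Gm12185*, as in *Irgm2*, a GAS stood 11 bases before an ISRE, counted from first base to first base, and the GAS began 81, 88, 45, 86 and 75 bases before the start. Among the 32851 RefSeq windows of 250 bases before a start, 5 held this arrangement (0.0152%), and they were the windows of these 5 genes. The 5 genes belong to 1 family, and *Tgtp1*, *Tgtp2* and *Gm12185* share stretches of transcript, so they are not independent cases. The window of *Ifi47* held none of the letters searched, and *Gm4841* and *Gm4951* had no window. *Cxcl10* held an ISRE 213 bases and κB motifs 159 and 104 bases before its start, and *Serpina3f* a GAS 121 bases before 1 of its starts. In windows from 250 bases before to 50 after the start, 8.30% of all promoters held the GAS letters, 3.44% the ISRE and 5.56% the κB letters. Of the 1572 called genes, 1140 had a window. In windows of induced genes the GAS, ISRE and κB shares were 13.5%, 9.46% and 11.4%. They were 6.14%, 2% and 3.71% for repressed genes and 6.49%, 2.69% and 5.76% for tested genes not called. A gene can have several windows, and the shares were not tested. A match describes letters, not binding.

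For each cytokine of the cocktail, 1 receptor chain was called higher. Of the 8 genes tested among the cytokines and their receptors, 3 were called higher (37.5%, against 5.02% of all genes) and 0 lower. *Tnfrsf1a*, which encodes TNFR1, was at 62.8, 61.3 and 60.7 FPKM in NS and at 157, 171 and 157 FPKM in Stim cultures, a rise of 1.38 ± 0.04 SE (adjusted p = 0.000226). *Ifngr2*, the signaling chain of the IFNγ receptor, rose by 1.18 ± 0.05 SE, whereas the ligand-binding chain *Ifngr1* differed by −0.05 ± 0.04 SE (adjusted p = 0.401). *Il1r1*, the signaling IL1 receptor, rose by 1.43 ± 0.08 SE, and its accessory chain *Il1rap* differed by 0.11 ± 0.05 SE (adjusted p = 0.16). *Tnfrsf1b*, which encodes TNFR2, was at 0.155, 0.138 and 0.248 FPKM in NS and at 1.49, 0.629 and 1.08 FPKM in Stim cultures. The Stim cultures were all higher, with 51 reads in NS and 311 in Stim libraries (ratio 5.87, interval 4.36 to 8.06). The mean lay below the 1 FPKM that a call required (difference 1.17 ± 0.18 SE, limma adjusted p = 0.0135). The decoy receptor *Il1r2* differed by 0.52 ± 0.14 SE (adjusted p = 0.06). Of the ligands, *Tnf* had 1 read in the NS libraries and 61 in the Stim libraries, a ratio of 58.8 (interval 10.2 to 2358) that was also below the level of a call, *Ifng* had 0 reads in all 6 libraries, and *Il1b* and the antagonist gene *Il1rn* were below the limit of 0.1 FPKM.

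Of the 23 genes of the JAK-STAT and IRF list, which spans kinases, STATs, IRFs and inhibitors, 20 rose and 0 fell, 87% against 5.02% of all genes, with a median of 2.24. *Irf1* (ENSMUSG00000018899; chromosome 11, 53770014 to 53778374), an early target of the interferon route, was at 92.1, 61.5 and 77.6 FPKM in NS and at 11444, 12313 and 12002 FPKM in Stim cultures. Its rise was 7.28 ± 0.14 SE (limma adjusted p = 9.25e-05), and all 3 Stim cultures lay more than 100 times above the NS cultures. *Irf8*, an IRF known from myeloid cells, went from 0.476, 0.585 and 0.453 FPKM to 265, 296 and 293 FPKM (8.15 ± 0.06 SE). *Batf2*, an AP-1 family partner of IRFs, rose from 2 reads to 3372 (ratio 1624, interval 449 to 13416). Inhibitors of the pathway rose with it, led by *Socs1*, which blocks JAK kinases, from 1.31, 2.06 and 2.21 FPKM to 109, 127 and 123 FPKM (5.69 ± 0.09 SE). The 3 members not called were *Tyk2*, *Stat6* and *Irf3*, at 0.32 ± 0.15, −0.01 ± 0.11 and −0.15 ± 0.07 SE (adjusted p = 0.178, 0.974 and 0.188).

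The NF-κB list gave 23 rises and 0 falls among 37 genes tested (62.2%, median 1.15). The strongest were *Bcl3*, a nuclear IκB protein (5.93 ± 0.16 SE), *Tnfaip2* (5.70 ± 0.16 SE), *Birc3*, an inhibitor of apoptosis (4.75 ± 0.18 SE), *Ripk2*, a kinase of the NOD pathway (4.52 ± 0.09 SE), and *Tnfaip3*, the ubiquitin-editing inhibitor A20 (4.02 ± 0.10 SE). *Tnfaip3* was at 21.7, 24.7 and 27.8 FPKM in NS and at 439, 369 and 412 FPKM in Stim cultures, with no overlap. The upstream kinase gene *Ikbkb* differed by 0.02 ± 0.05 SE (adjusted p = 0.777). *Traf3*, a brake on noncanonical NF-κB, and *Cyld*, a deubiquitinase, differed by −0.37 ± 0.05 and 0.25 ± 0.03 SE, past an adjusted p of 0.05 (0.00789 and 0.00698) but below 1.5-fold.

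**Figure D2:**
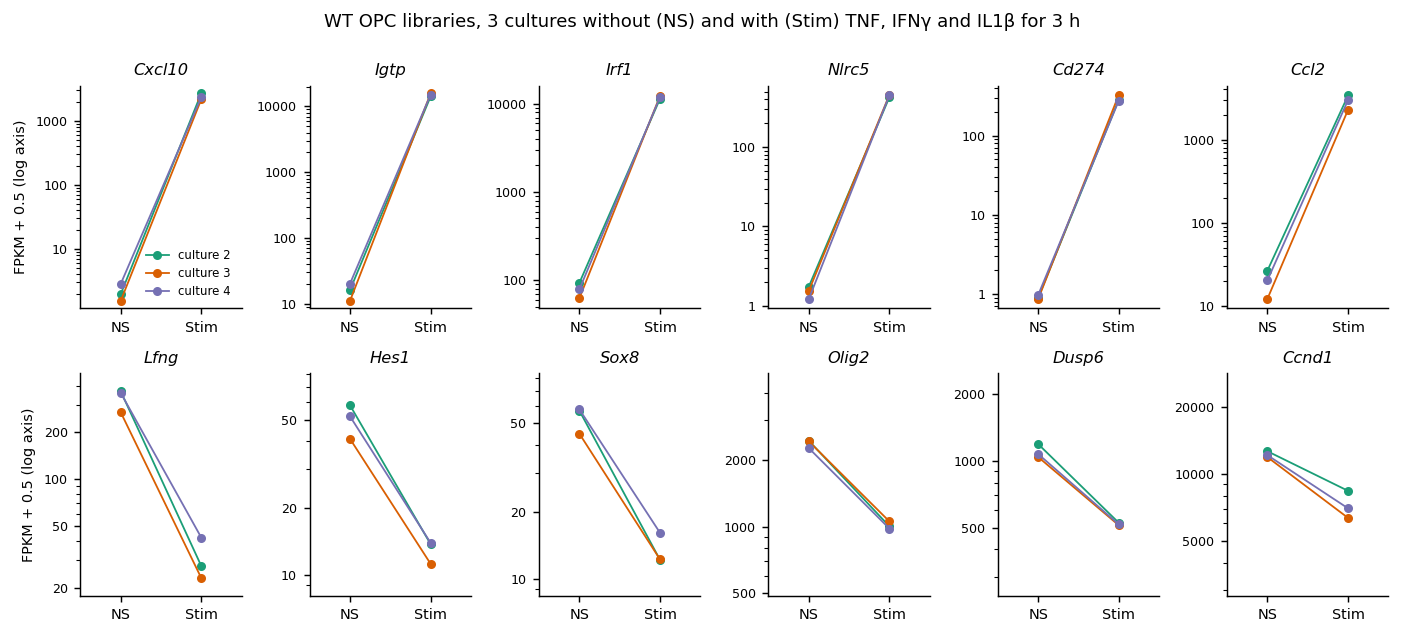
FPKM + 0.5 (log axes, 1 scale for each gene) of 12 genes in the 6 WT libraries, with a line joining the NS and the Stim library of each culture. All 3 lines rise in the upper row (*Cxcl10*, *Igtp*, *Irf1*, *Nlrc5*, *Cd274*, *Ccl2*) and fall in the lower row (*Lfng*, *Hes1*, *Sox8*, *Olig2*, *Dusp6*, *Ccnd1*), and in each panel the NS and Stim values do not overlap.

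Among secreted signals, 13 of 25 chemokines tested rose and 0 fell (52%, median 1.94). *Ccl2*, which recruits monocytes, went from 26.2, 11.7 and 19.9 FPKM to 3387, 2278 and 2982 FPKM, a rise of 7.24 ± 0.11 SE (adjusted p = 7.39e-05). *Cxcl1*, a neutrophil attractant, went from 0.824, 0.263 and 0.885 FPKM to 566, 333 and 480 FPKM (8.65 ± 0.08 SE). In both genes culture 3 was the lowest of its group with and without cytokines. *Ccl5*, a T cell attractant, rose by 7.48 ± 0.30 SE, and *Cxcl9*, like *Cxcl10* a ligand of CXCR3, rose by 5.91 ± 0.16 SE from 2 reads to 13789 (ratio 6641, interval 1838 to 54843). *Cxcl14* and *Ccl25*, present before stimulation, did not follow. The former differed by −0.25 ± 0.04 SE (adjusted p = 0.0156, below 1.5-fold) and the latter by −0.01 ± 0.06 SE (adjusted p = 0.885). *Cxcl5* was higher in all 3 Stim cultures (1.26 to 2.69 FPKM against 0.0547 to 0.0916) but below the level of a call.

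Cytokines and acute phase proteins had 14 rises and 0 falls among 27 genes tested (51.9%, median 1.52). Beside *Serpina3f*, its relatives *Serpina3g* and *Serpina3i* rose, the former at least 315-fold from 0 reads in the NS libraries and the latter from 1 read to 393 (ratio 379, interval 67.5 to 14989.6). *Ptx3*, a soluble pattern recognition receptor, rose by 4.82 ± 0.12 SE, and *Lcn2*, which sequesters bacterial iron carriers, by 4.51 ± 0.13 SE. *Ptx3* was at 0.545, 0.248 and 0.556 FPKM in NS and at 35.5, 17.9 and 27.6 FPKM in Stim cultures. *Il18*, *Clcf1* and *Tnfsf9* differed by 0.22, 0.42 and 0.25, below 1.5-fold. Another 13 genes of the list, among them *Ifnb1*, *Il1a*, *Il10* and *Il12b*, were below 0.1 FPKM and are not among the 27. Complement genes were called in 5 of 14 cases tested, all upward (35.7%, median 0.51). *C3*, the central component, rose by 3.70 ± 0.31 SE, from 0, 0.419 and 0.107 FPKM to 10.8, 6.64 and 7.11 FPKM. *Serping1* and *C1s1*, an inhibitor and a protease of the classical route, rose by 3.05 ± 0.15 and 3.00 ± 0.12 SE, and *C4b* and *C2* by 1.66 ± 0.15 and 0.97 ± 0.09 SE. The abundant *Clu* differed by 0.26 ± 0.03 SE. For *C2*, 46.9% of exon bases lie under exons of another gene.

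Most genes of cell-autonomous defense rose. Of 20 interferon-inducible GTPases tested, 19 rose and 0 fell, with a median of 8.13. The exception was *Gbp2b*, at 0.216, 1.63 and 1.05 FPKM in Stim cultures against 0.00585, 0 and 0.0117 FPKM in NS cultures, with 3 reads against 496 (ratio 159, interval 54.2 to 775). Its mean was below 1 FPKM (adjusted p = 0.0423). Antiviral effectors and sensors rose in 41 of 52 cases tested and fell in 0 (78.8%, median 1.83). *Parp14*, an ADP-ribosyltransferase, went from 1.12, 0.519 and 0.657 FPKM to 217, 197 and 202 FPKM (7.37 ± 0.12 SE, adjusted p = 7.39e-05). *Dtx3l*, the ubiquitin ligase that pairs with PARP9, rose by 5.47 ± 0.15 SE. *Slfn8*, *Rtp4* and *Xaf1* rose by 5.26 ± 0.40, 5.14 ± 0.08 and 5.07 ± 0.44 SE. The RNA and DNA sensors *Dhx58* and *Mb21d1* (cGAS) differed by 0.16 ± 0.13 and 0.22 ± 0.06 SE (adjusted p = 0.443 and 0.0626).

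For antigen presentation, 18 of 26 genes of the MHC class I route rose and 0 fell (69.2%, median 1.73). *Nlrc5*, the transactivator of class I genes, was at 1.23, 1.03 and 0.704 FPKM in NS and at 425, 455 and 451 FPKM in Stim cultures, a rise of 8.24 ± 0.13 SE (adjusted p = 7.39e-05). The peptide transporter genes *Tap1* and *Tap2* rose by 5.45 ± 0.17 and 3.68 ± 0.06 SE, the class I gene *H2-Q4* by 4.33 ± 0.05 SE, and *Psmb8*, a subunit of the immunoproteasome, by 3.65 ± 0.08 SE. General chaperones of the endoplasmic reticulum that also serve class I folding did not pass the test. *Calr*, *Canx* and *Pdia3* differed by −0.07, −0.06 and −0.07, with an SE of 0.03 each (adjusted p = 0.138, 0.224 and 0.194). Of 8 genes of the MHC class II route tested, 0 were called in either direction by limma or by voom, and 2 had an unadjusted p under 0.05. By adjusted p alone the same 2 passed, *Ciita*, the class II transactivator, and *Cd74*, the invariant chain (1.92 and 1.75, with means below 1 FPKM), which are named here after their values were seen. The class II genes *H2-Ab1* and *H2-DMa* differed by −0.10 ± 0.15 and 0.15 ± 0.09 SE.

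**Figure D3:**
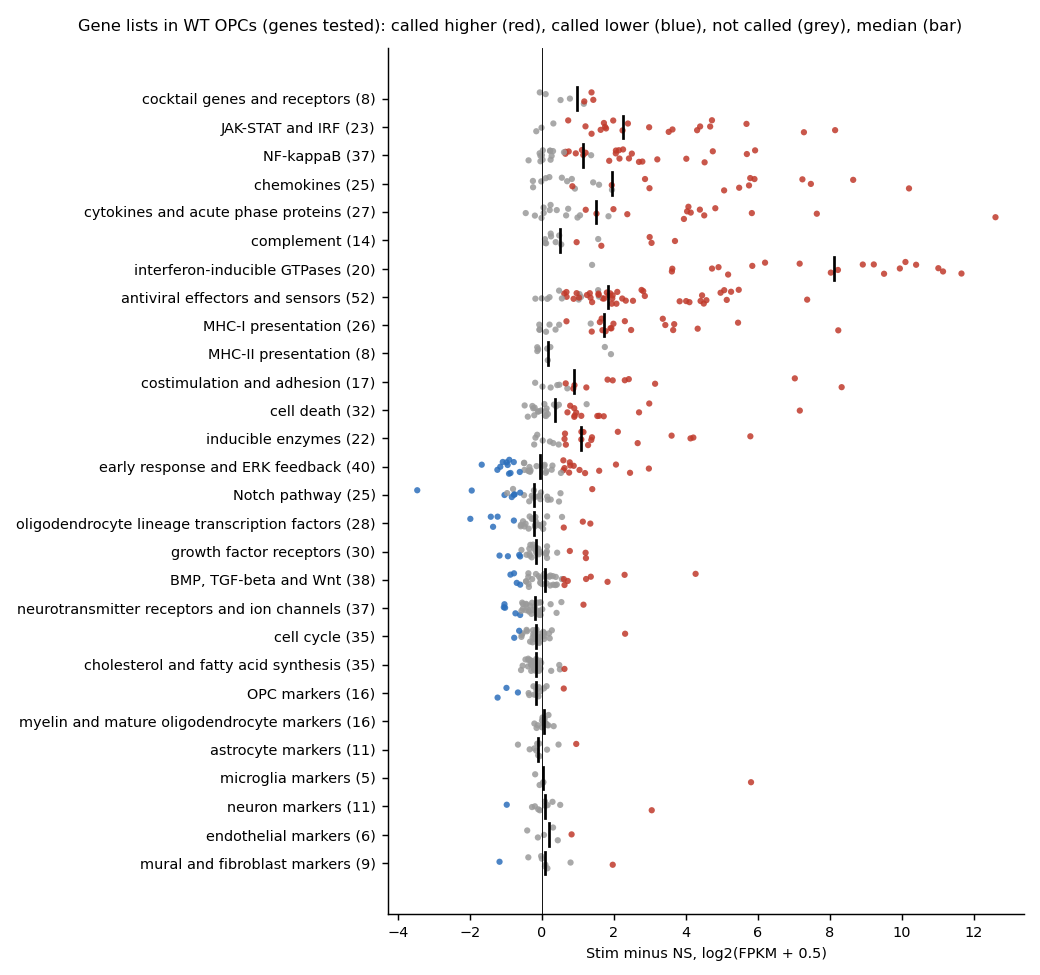
Difference between Stim and NS on the log2(FPKM + 0.5) scale for the tested members of 28 gene lists, whose number stands in parentheses. Points are genes called higher (red), called lower (blue) or not called (grey), the vertical bar is the median of the list, and vertical scatter within a list has no meaning. The interferon-inducible GTPases have a median of 8.13, and the lists of Notch, lineage and channel genes have medians of −0.23, −0.22 and −0.20.

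Surface molecules that face T cells and leukocytes followed, with 11 rises and 0 falls among 17 genes of costimulation and adhesion (64.7%, median 0.91). *Cd274*, which encodes the T cell inhibitor PD-L1, went from 0.396, 0.362 and 0.469 FPKM to 281, 324 and 274 FPKM (8.33 ± 0.09 SE, adjusted p = 4.77e-05). *Icam1*, a ligand of leukocyte integrins, rose by 7.03 ± 0.15 SE from 16.7, 6.33 and 15.6 FPKM to 2009.5, 1202 and 1743 FPKM, again with culture 3 lowest in both conditions. *Cd40*, a costimulatory receptor, rose by 3.15 ± 0.11 SE. *Madcam1* and *Sele*, adhesion molecules best known from vessels, rose as well. The former went from 2 reads to 158 (ratio 76.1, interval 20.7 to 634), and the latter rose by 2.31 ± 0.18 SE, with a mean below 1 FPKM without culture 2. *Ncam1* and *Alcam*, adhesion molecules of neural cells, differed by −0.18 ± 0.03 and 0.02 ± 0.03 SE.

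Cell death genes rose in 13 of 32 cases tested and fell in 0 (40.6%, median 0.37). *Casp4*, the inflammatory caspase that senses bacterial lipopolysaccharide, went from 0.505, 0 and 1.01 FPKM to 147, 108 and 140 FPKM (7.17 ± 0.25 SE, adjusted p = 0.000281). *Mlkl*, the executioner of necroptosis, rose by 2.99 ± 0.10 SE, and the death receptor gene *Fas* rose by 2.70 ± 0.09 SE, from 16.2 to 29.9 FPKM in NS to 127 to 169 FPKM in Stim cultures. *Casp12* rose by 1.72 ± 0.08 SE and the pyroptosis pore gene *Gsdmd* by 1.59 ± 0.20 SE (adjusted p = 0.00815, and 0.0776 without culture 3). The mitochondrial regulators *Bax* and *Mcl1* differed by 0.12 and −0.02 (adjusted p = 0.113 and 0.651). Inducible enzymes gave 15 rises and 0 falls in 22 genes tested (68.2%, median 1.10). *Irg1*, which makes itaconate, rose from 2 reads to 517 (ratio 249, interval 68.6 to 2062), and *Nos2*, the inducible nitric oxide synthase, from 3 to 671 (ratio 215, interval 73.4 to 1047). *Ch25h*, a cholesterol hydroxylase, rose by 4.21 ± 0.07 SE, *Tgm2*, a transglutaminase, by 4.13 ± 0.08 SE and *Ptgs2* (cyclooxygenase-2) by 2.66 ± 0.07 SE. *Ptgs2* was at 3.47, 1.76 and 2.51 FPKM in NS and at 23.3, 15.4 and 17.7 FPKM in Stim cultures. *Sod2*, *Hmox1* and *Nqo1* differed by 0.32, 0.23 and −0.17, below 1.5-fold. In 11 of the immune lists from JAK-STAT and IRF to these enzymes, limma and voom each called some genes higher and 0 lower. With each gene counted once, these 11 lists held 295 tested genes. Of these, limma called 192 higher and 0 lower, against 5.02% and 3.71% of all genes. At an unadjusted limma p under 0.05, 239 were higher and 11 lower, 250 of 295 in all, against 7498 of 18021 genes. The MHC class II list, with 8 genes tested and 0 called by limma or by voom, is not among the 11.

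The list of early response and ERK feedback genes split in both directions, with 13 rises and 11 falls among 40 tested (32.5% and 27.5%, against 5.02% and 3.71% of all genes) and a median of −0.04. On the rising side stood *Ier3* (2.98 ± 0.21 SE), the AP-1 genes *Atf3* (2.45 ± 0.11 SE) and *Junb* (2.06 ± 0.06 SE), *Egr2* (1.60 ± 0.15 SE) and *Nr4a2* (1.20 ± 0.04 SE). *Nr4a1*, a relative of the last, moved the other way, from 130, 128 and 143 FPKM to 40.5, 42.6 and 42.3 FPKM (−1.67 ± 0.04 SE, adjusted p = 0.000165). Several negative feedback genes of the growth factor to ERK route fell as well, whereas the ERK phosphatase gene *Dusp5*, named after its value was seen, rose by 0.78 (adjusted p = 0.000413). *Dusp6*, the phosphatase of ERK, was at 1192, 1042 and 1075 FPKM in NS and at 527, 514 and 518 FPKM in Stim cultures (−1.08 ± 0.04 SE). *Spry4*, an inhibitor of receptor tyrosine kinase signaling, and *Etv5*, an ETS factor downstream of ERK, fell by 1.15 ± 0.03 and 1.23 ± 0.04 SE, and *Klf10* fell by 0.98 ± 0.03 SE. The relatives *Spry2* and *Etv4* differed by −0.31 ± 0.03 and −0.49 ± 0.03 SE (adjusted p = 0.00272 and 0.000969), below 1.5-fold. For *Etv5*, 15.2% of 100-base stretches also occur in a related locus.

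The largest fitted fall was that of *Lfng* (ENSMUSG00000029570; chromosome 5, 140607320 to 140615545), a glycosyltransferase that modifies Notch receptors. It was at 368, 269 and 359 FPKM in NS and at 27.1, 22.6 and 41.6 FPKM in Stim cultures, or 3806 reads against 360. The groups did not overlap, and the difference was −3.46 ± 0.13 SE (limma adjusted p = 0.000369). Of 25 Notch pathway genes tested, 1 rose and 7 fell (28% against 3.71% of all genes), with a median of −0.23. *Hes1*, a direct Notch target and repressor of neural differentiation, went from 57.5, 40.5 and 51.2 FPKM to 13.3, 10.7 and 13.4 FPKM (−1.95 ± 0.06 SE). The ligand gene *Jag1* fell by 1.03 ± 0.05 SE, the modulator *Dtx1* by 0.83 ± 0.06 SE and the receptor gene *Notch2* by 0.77 ± 0.07 SE. *Notch1* was the exception, with 25.7, 20.1 and 23 FPKM in NS and 59.2, 61.7 and 62.5 FPKM in Stim cultures (1.40 ± 0.09 SE, adjusted p = 0.00119). The coactivators *Maml1* and *Maml2* and the inhibitory ligand *Dll3* differed by −0.02, −0.04 and −0.17, with adjusted p values of 0.635, 0.554 and 0.0642.

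The other large falls were of single genes. *Pyy*, a gut peptide hormone, went from 12.4, 18.9 and 16.2 FPKM to 2.52, 1.77 and 1.01 FPKM, or 180 reads to 21 (−2.89 ± 0.29 SE, adjusted p = 0.00413, and 0.062 without culture 3). *Hif3a*, a hypoxia-inducible factor, went from 53 reads to 6 (−2.76 ± 0.13 SE). *Fam65b* went from 172, 91.5 and 212 FPKM to 35.0, 19.8 and 42.2 FPKM, and although its level varied between cultures its change did not (−2.28, −2.18 and −2.31, fitted −2.26 ± 0.04 SE, adjusted p = 8.39e-05). *9930012K11Rik*, *2900037B21Rik*, *A330033J07Rik*, *Gpr12*, *Fam101a* and *Gm37608* fell by 2.08 to 2.31. The calls of *2900037B21Rik*, *Fam101a* and *Gm37608* were lost without culture 3 (adjusted p = 0.069, 0.0551 and 0.0803) and that of *Gm37608* also without culture 4 (0.079). *A330033J07Rik* lies in part under exons of *Id4* on the other strand, and the sources do not state whether reads were counted by strand.

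Transcription factors of the oligodendrocyte lineage were lower in 21 of 28 cases tested, against 11049 of 18021 genes in all. By the call, 3 rose and 5 fell (17.9% against 3.71% of all genes), with a median of −0.22. *Sox8*, a SoxE factor of glia, went from 56.6, 44.5 and 57.3 FPKM to 11.7, 11.7 and 15.6 FPKM (−1.98 ± 0.09 SE, adjusted p = 0.000583). *Olig2*, which specifies the lineage, went from 2434, 2419 and 2254 FPKM to 1002, 1054 and 979 FPKM (−1.23 ± 0.03 SE, adjusted p = 0.000141). In both genes every Stim culture was below every NS culture. *Olig1*, its neighbor and paralog, was also lower in every Stim culture, but by less than 1.5-fold (−0.36 ± 0.03 SE, adjusted p = 0.00184). *Id4*, an inhibitor of differentiation, and *Sox2*, a progenitor factor, fell by 1.42 ± 0.09 and 0.77 ± 0.03 SE. Against this trend *Sox11*, a factor of immature neural cells, rose by 1.35 ± 0.04 SE from 218, 253 and 220 FPKM to 587, 632 and 544 FPKM. *Nkx6-2*, a homeobox factor of the lineage, rose by 1.14 ± 0.19 SE (adjusted p = 0.0154, and 0.0951 without culture 3), and *Sox10* by 0.61 ± 0.10 SE (0.47 without culture 3, and adjusted p = 0.0705 without culture 4). *Myrf*, which drives myelin genes, differed by 0.04 ± 0.12 SE (adjusted p = 0.842).

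Among markers of OPCs, 1 of 16 tested rose (*Sox10*) and 3 fell (6.25% and 18.8%, against 5.02% and 3.71% of all genes). Their summed level was 11264 to 12899 CPM (reads scaled to library depth) in NS and 9456 to 10869 in Stim libraries. In bulk RNA, fewer cells of a type and less RNA per cell cannot be told apart. *Cspg4* (NG2) fell from 4549.6, 5109 and 4169 FPKM to 2711, 3166 and 2849.8 FPKM (−0.66 ± 0.05 SE). *Gpr17*, a receptor of committed precursors, fell by 0.98 ± 0.19 SE (adjusted p = 0.0247, and 0.0786 and 0.0914 without cultures 3 and 4). *Pdgfra*, the receptor used to isolate the cells, differed by −0.35 ± 0.03 SE (adjusted p = 0.00296), below 1.5-fold, and *Ptprz1*, *Vcan* and *Tnr* by −0.16, −0.23 and −0.15.

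The levels of several myelin genes ranged more widely between cultures than between conditions. Of 16 markers of myelin and mature oligodendrocytes tested, 0 were called by limma or by voom and 2 had an unadjusted p under 0.05, while 13 were higher and 3 lower with a median of 0.05. *Mbp* was at 721, 429 and 214 FPKM in NS cultures 2, 3 and 4 and at 782, 452 and 210 FPKM in the Stim cultures of the same numbers (0.05 ± 0.04 SE, adjusted p = 0.364). Its highest culture was thus 3.37 times its lowest in NS and 3.73 times in Stim, with the same order of cultures in both. For *Mobp* these ratios were 9.50 and 6.41 and for *Mag* 3.19 and 2.70, against differences of 0.15 ± 0.11 and 0.18 ± 0.05 SE with stimulation. With only 1 library of each condition in a culture, the difference between cultures was not tested.

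**Figure D4:**
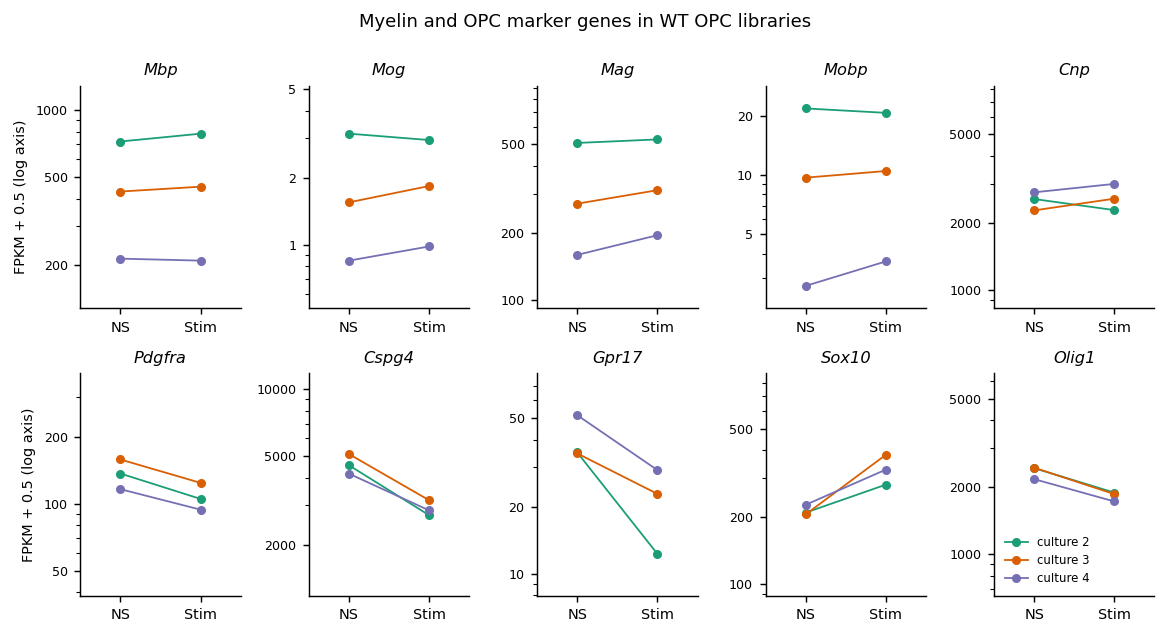
FPKM + 0.5 (log axes, 1 scale for each gene) of 5 myelin genes (upper row) and 5 OPC genes (lower row), with a line joining the NS and the Stim library of each culture. *Mbp* spans 214 to 721 FPKM between NS cultures with nearly level lines, whereas the 3 lines of *Cspg4* all fall and those of *Sox10* all rise.

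Of 30 growth factors and receptors, 3 rose and 4 fell (10% and 13.3%, against 5.02% and 3.71% of all genes). *Fgf2* and *Met*, the latter the receptor of hepatocyte growth factor, rose by 1.23 ± 0.07 and 1.22 ± 0.09 SE, and *Fgfr3* fell by 0.94 ± 0.06 SE from 33.5, 25.9 and 30.5 FPKM to 17.3, 12.1 and 17.0 FPKM. *Fgfr1* differed by −0.34 ± 0.02 SE, below 1.5-fold. The calls of *Pdgfrb* (−1.17), *Pdgfb* (0.78), *Mertk* (−0.63) and *Vegfa* (−0.60) were each lost without at least 1 culture, *Pdgfrb* without culture 3 or 4 (adjusted p = 0.0839 and 0.0649), *Pdgfb* without 2 or 3 (0.108 and 0.0974), *Mertk* without any (0.0502 to 0.0783) and *Vegfa* without 2 (0.0202, at −0.55). Of 35 cell cycle genes, 1 rose and 2 fell (2.86% and 5.71%), shares near those of all genes, and 27 were lower, with a median of −0.16. *Cdk6*, a partner of D cyclins, went from 4.64, 4.20 and 4.93 FPKM to 27.8, 22.8 and 24.1 FPKM (2.32 ± 0.07 SE, adjusted p = 0.000228). *Ccnd1*, cyclin D1, went from 12667, 11921 and 12160.0 FPKM to 8406, 6351 and 7013 FPKM (−0.76 ± 0.07 SE), and the inhibitor gene *Cdkn1b* (p27) fell by 0.63 ± 0.03 SE, though by less than 1.5-fold with median-of-ratios scaling. *Top2a*, *Ccnd2* and *Mcm7* differed by 0.22, −0.16 and −0.10.

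In the BMP, TGF-β and Wnt list 8 of 38 genes rose and 4 fell (21.1% and 10.5%, against 5.02% and 3.71% of all genes). The median was 0.09. *Fst*, which binds and blocks activins, went from 0.737, 0.484 and 0.586 FPKM to 26.3, 17.3 and 19.5 FPKM (4.27 ± 0.08 SE, adjusted p = 9.58e-05). *Inhba*, a subunit of activin itself, rose by 1.83 ± 0.06 SE, with culture 2 lowest in both conditions (7.09, 17.9 and 23.8 against 28.3, 67.5 and 76.9 FPKM). The inhibitory *Smad6* rose by 2.30 ± 0.23 SE, *Axin2*, a feedback inhibitor of Wnt, by 1.36 ± 0.05 SE and *Bmp2* by 1.23 ± 0.10 SE. *Wnt7b*, a ligand that OPCs use toward vessels, fell by 0.77 ± 0.03 SE. *Wnt7a* and *Bmp4* fell by 0.69 ± 0.09 and 0.87 ± 0.14 SE. Both calls were lost without culture 2 (−0.71 and −0.73, adjusted p = 0.0505 and 0.0719), that of *Wnt7a* also without culture 3 (0.0556) and that of *Bmp4* without culture 4 (0.0894). *Gdf15* fell by 0.60 ± 0.04 SE, and by less than 1.5-fold without culture 4 (−0.55).

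Of 37 neurotransmitter receptors and ion channels, 1 rose and 5 fell (2.7% and 13.5%, against 5.02% and 3.71% of all genes), and 32 were lower (median −0.20), against 11049 of all 18021 genes. *P2ry1*, an ATP receptor, *Kcna1*, a potassium channel, and *Htr2a*, a serotonin receptor, fell by 1.05 ± 0.07, 1.04 ± 0.03 and 1.02 ± 0.06 SE. *Kcnj10* (Kir4.1) fell by 0.73 ± 0.07 SE (adjusted p = 0.00351, and 0.054 without culture 3). *Chrna4*, a nicotinic receptor subunit, fell by 0.60 ± 0.06 SE, and by less than 1.5-fold with median-of-ratios scaling. *Cacng5*, an auxiliary subunit of AMPA receptors, rose by 1.16 ± 0.09 SE, whereas its relative *Cacng4* differed by −0.35 ± 0.03 SE. The AMPA receptor gene *Gria4* differed by −0.05 ± 0.03 SE (adjusted p = 0.24). Of 35 genes of cholesterol and fatty acid synthesis, 31 were lower (11049 of 18021 in all) with a median of −0.17, and 1 was called, *Acacb*, upward (0.63 ± 0.08 SE, adjusted p = 0.00931, and 0.0803 and 0.0587 without cultures 3 and 4). *Scd2* and *Fdft1* differed by −0.38 and −0.15, past an adjusted p of 0.05 and below 1.5-fold. By adjusted p alone 18 of the 35 were lower (51.4%, against 18.7% of all genes).

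In each list of markers of other cell types 1 gene was called higher, and in the neuron and mural lists 1 was also called lower. The shares called higher were 9.09% to 20%, against 5.02% of all genes. Called lower were 9.09% of neuron and 11.1% of mural and fibroblast markers, against 3.71% of all genes. The lists were short, with 5 to 11 genes tested. Of 11 astrocyte markers 1 rose, *Gfap*, by 0.96 ± 0.07 SE (11.8, 6.23 and 12.5 FPKM to 23.3, 14.1 and 22.2 FPKM), and the summed level of the list was 2130.3 to 2466 CPM in NS and 2031 to 2104 in Stim libraries. *Aqp4* differed by 0.47 ± 0.03 SE. Among the 5 microglia markers tested *Cd14*, the lipopolysaccharide coreceptor, rose by 5.81 ± 0.17 SE from 8.04, 5.56 and 8.82 FPKM to 578, 392 and 376 FPKM, while *P2ry12*, *Cd68* and *Fcer1g* differed by −0.06 to 0.05. The microglia list summed to 19.2 to 21.2 CPM in NS and 50.5 to 68.2 in Stim libraries. Of 11 neuron markers *Tubb3*, a tubulin of neurons, rose by 3.06 ± 0.05 SE from 58.4, 48.0 and 47.3 FPKM to 445, 417 and 422 FPKM, and *Snap25* fell by 0.97 ± 0.11 SE. *Rbfox3*, *Map2* and *Syt1* differed by −0.10, −0.27 and 0.09, and the list summed to 967 to 1059 CPM in NS and 1179.5 to 1254 in Stim libraries. The endothelial *Cldn5* rose by 0.83 ± 0.14 SE (adjusted p = 0.0176, and 0.0788 and 0.0852 without cultures 3 and 4), and *Cdh5*, *Tek* and *Emcn* were below 0.1 FPKM. Mural and fibroblast markers varied between cultures, with a summed level of 412 to 1349.5 CPM in NS and 518 to 1219.9 in Stim libraries, and *Tagln* was at 2183, 1224 and 3715 FPKM in NS cultures 2, 3 and 4. In that list *Lum* rose by 1.97 ± 0.22 SE from 6 reads to 65 (adjusted p = 0.00553, and 0.0644 without culture 3) and *Pdgfrb* fell. The part of other cells in the responses above was not tested.

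The response of WT OPCs was set against that of TNFR2-/- OPCs by testing the difference of both responses over 12 libraries. The targeted gene *Tnfrsf1b* was represented by 12 to 24 reads per WT library without and 61 to 145 with cytokines, and 213 to 346 and 282 to 356 in the libraries labelled as TNFR2-/-, so these do not lack its reads and the direction rests on their labels. Of 18021 genes 0 were called (limma, 0%), 1 passed an adjusted p of 0.05 alone (0.00555%) and 3830 had an unadjusted p under 0.05. The gene that passed, *Gbp2b*, also exceeded the fold threshold (−7.63, limma adjusted p = 0.00857). It was not called because the level rule used the mean of the WT libraries, which was below 1 FPKM. In the Stim libraries labelled TNFR2-/- it was at 286 to 406 FPKM. With voom on the recovered reads, an alternative added after the data were seen, 154 were called. Of the 1572 genes called in WT cells, 1551 had the same sign in the libraries labelled TNFR2-/-, where 1475 also had an adjusted p of at most 0.05. The matching counts over all 18021 genes are not given, so these counts are not set against a background. For the difference of both responses, 500 of the 1572 genes had an unadjusted limma p under 0.05, against 3830 of all 18021. The responses of *Igtp* (9.95 in WT and 8.20 in TNFR2-/-), *Irf1* (7.28 and 6.69), *Lfng* (−3.46 and −4.18) and *Olig2* (−1.23 and −1.16) gave adjusted p values of 0.102, 0.15, 0.424 and 0.636 for their differences.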

How the data were processed

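RNA of 12 OPC libraries was sequenced, and 6 WT libraries were analyzed here, with the 6 TNFR2-/- libraries for the comparison of responses and 1 alternative. The labels and the methods differ on the platform (Illumina and BGISeq-500). According to the submitters' processing notes and the methods, Trim Galore, STAR (on GRCm38) and edgeR were used to trim, to align and count, and to normalize. The deposited values are FPKM, made by the authors from those counts. All columns of values were used, 229 entries that share a symbol were left out, and the separate tables of NS and Stim libraries were joined by symbol.

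FPKM of a gene are whole multiples of 1 read, so reads were recovered, with 1 divisor per gene over both tables, for all 26636 genes above 0 in at least 2 libraries (100% whole). They served for depth, folds of low genes and voom. No negative binomial count model was run.

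Differences were fitted with limma 3.58.1 (R 4.3.3) on log2(FPKM + 0.5) over the 6 WT libraries, with the culture number as a block, a trended prior and Benjamini-Hochberg adjustment over 18021 genes. Same-numbered NS and Stim libraries correlated at 0.50, 0.58 and 0.33 after group means were removed, other pairs at −0.45 to −0.03 (13510 genes), so the numbers pair the libraries. With 3 libraries against 3, an exact permutation test of 1 gene that ignores the pairing cannot go below p = 0.1. A permutation test within pairs has fewer arrangements, so its lowest p is higher. The difference of WT and TNFR2-/- responses was fitted over 12 libraries with culture within genotype as the block. The procedure was tested on simulated data.

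Where a group had 0 reads, folds were taken against 3 reads over the group, and other ratios of reads have exact binomial intervals at 95%. Symbols were placed on GENCODE M21 (GRCm38). Motifs were searched in RefSeq promoters.

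Genes named were the 10 largest fitted changes in each direction and all cocktail genes, receptors and cell type markers. Of each other list they were up to 5 called genes in each direction and the 3 genes not called with the highest mean FPKM. Some genes under this rule are not reported here. The members and lists were chosen with earlier results of these data known.

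Alternatives were the fit without the block, other pseudocounts, filters, scalings and thresholds, limma without the trend, voom, all 12 libraries in 1 fit and each culture left out in turn. Python 3.11.15, numpy 2.4.6, pandas 2.3.3, scipy 1.17.1 and matplotlib 3.10.9 were used.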

Additional observations from a re-analysis of the deposited data

Results flagged for a closer look

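The response of *Gbp2b*, a guanylate binding protein, differed between genotypes by the test of the difference itself (WT minus TNFR2-/- response −7.63 ± 0.38 SE, limma adjusted p = 0.00857). It was at 0.216 to 1.63 FPKM in WT Stim libraries and at 286 to 406 FPKM in the Stim libraries labelled as TNFR2-/-, against 0 to 0.0117 and 0.0754 to 0.301 FPKM in the NS libraries. The difference was in the same direction in 3 of 3 libraries of each group. Why it differs was not tested.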

How the results depend on the processing

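The number of called genes was 1271 to 1483 when each culture was left out in turn, with 779 to 858 higher and 492 to 630 lower. Without the replicate block, that is without the pairing of cultures, it was 1426, of which 1420 were also called with it, and the named genes *Bmp4*, *Cldn5*, *Gdf15*, *Gfap*, *Gpr17*, *Inhba*, *Notch2*, *Pdgfb* and *Pdgfrb* were lost and no other named call changed. Other pseudocounts, filters, scalings, fits and voom gave 1363 to 1684, no level threshold gave 1846 (1107 higher, 739 lower), and median-of-ratios scaling gave 981 higher and 530 lower (64.9% higher against 57.5%), taking *Cdkn1b*, *Chrna4*, *Gdf15*, *Mertk* and *Vegfa* below 1.5-fold. No fold threshold gave 5030 genes (1779 higher, 3251 lower), so the balance of directions depends on it, and a 2-fold threshold gave 761 (571 and 190). In the difference between genotypes voom with the block called 154 genes against 0. Of 253 named genes, 128 called, 0 changed direction under any alternative while called.

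Depth limits the genes near 0 in NS cells, whose fitted changes follow the pseudocount. Calls at a mean near 1 FPKM depend on the level rule, since the bases behind each FPKM vary between genes. With a log2 CPM of at least 1 in its place, 13 named genes were lost and 3 gained. Cultures were too few to test single genes by permutation.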
